A study of Mus musculus with 2 samples.

Results

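Acta2-high collagen cells were examined in single-cell RNA sequencing of orthotopic mouse pancreatic tumors. A barcode was kept when it held at least 1000 unique molecules (UMIs), 200 to 5000 detected genes and at most 8% mitochondrial UMIs. A kept cell was a collagen cell when Col1a1, Col1a2 and Col3a1 together made up at least 0.2% of its UMIs, when it held at least 2 UMIs of Dcn, Lum, Pdgfra or Pdgfrb, and when it held no UMI of Ptprc, Pecam1 or Epcam. The members were selected on the measured counts of these genes. A collagen cell was called Acta2-high when Acta2 and Tagln together reached 0.05% of its UMIs, and Acta2-low otherwise. The rule found 132 Acta2-high cells among 16523 kept cells, of which 79 were among 7337 cells of the FLOX library and 53 among 9186 cells of the MCT1-KO library. The 269 Acta2-low collagen cells, 82 and 187, served as the comparison within each library.

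Each tumor was seeded by injecting the pancreas with KPC cells, a mouse line of pancreatic cancer, and was harvested after 2 to 3 weeks. FLOX mice (MCT1 fl/fl) carried loxP sites in Slc16a1, the gene of the lactate transporter MCT1. MCT1-KO mice (Col1a2-CreERT2-MCT1-/-) also carried a tamoxifen-inducible Cre recombinase driven by the Col1a2 promoter, which acts in collagen-producing cells in general and not in pancreatic stellate cells (PSCs) alone. The methods describe tamoxifen injections before implantation, and the agent given to the FLOX mice of this library is not clear from the sources used here. Each condition was 1 library of unsorted dissociated cells, and the number of mice behind a library is not given in the sources used here. No test between libraries was therefore possible. Every difference below compares these particular libraries, and every interval is a 95% interval that covers counting error only.

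PSCs are fat-storing cells of the pancreas that turn into matrix-secreting myofibroblasts around tumors. Acta2 encodes alpha smooth muscle actin and Tagln encodes transgelin, an actin-bundling protein, and both belong to the contractile machinery that marks the myofibroblast state. In pancreatic tumors this contractile state is known to stand opposite to an inflammatory fibroblast state, which secretes cytokines, chemokines and complement. Pericytes and vascular smooth muscle cells also express Acta2 and Tagln, so the rule admits them where they carry collagen transcripts.

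The files held 177334432 UMIs for FLOX and 151118092 for MCT1-KO. Acta2-high cells had a median of 11865 UMIs in FLOX and 9991 in MCT1-KO, and Acta2-low cells had 9748 and 7897. No collagen cell shared its barcode with a collagen cell of the other library, although 37 barcodes occurred in both libraries among all kept cells. Free RNA was read from barcodes with 10 to 100 UMIs. By the level of 12 acinar enzyme genes there, free RNA made up an estimated 41.3% of the UMIs of Acta2-high cells in FLOX and 4.71% in MCT1-KO, against 25.6% and 13.4% in Acta2-low cells. The FLOX estimate is unsteady, since 23 of its 34 Ctrb1 UMIs in Acta2-high cells came from 1 cell. Myeloid markers summed to 8772 CPM in barcodes with 10 to 100 UMIs of FLOX, beside 783 and 870 CPM in its Acta2-high and Acta2-low cells. Free RNA at the estimated shares would carry more myeloid UMIs than those cells held, so both FLOX estimates are too high. The estimate for Acta2-low cells of MCT1-KO is too high by the same check. Those cells held 674 CPM of myeloid markers, beside 5765 CPM in barcodes with 10 to 100 UMIs of MCT1-KO. Values given below with free RNA subtracted rest on these estimates. Levels are given as CPM, the UMIs of a gene per 1000000 summed UMIs of a class.

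Slc16a1, the targeted gene, was counted at 13 UMIs in 79 Acta2-high cells of FLOX, which is 15.0 CPM, and at 12 UMIs in 53 cells of MCT1-KO, which is 23.7 CPM. The CPM ratio of MCT1-KO over FLOX was 1.59 (0.662 to 3.77), so neither a lower nor a higher level was detectable at this depth. Barcodes with 10 to 100 UMIs held 21.4 and 21.0 CPM of Slc16a1, the same range as the Acta2-high cells. In Acta2-low cells the level was 40.7 CPM in FLOX and 39.6 CPM in MCT1-KO, with a ratio of 0.973 (0.631 to 1.53). The kit counts the 3′ ends of transcripts, the floxed exons are not given in the sources used here, and whether such a count would report the deletion was not tested. Slc16a1 thus did not separate the libraries in these cells by these counts.

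Of the 4 genes that mark the population by definition, Col1a1 was found in 78 of 79 Acta2-high cells of FLOX and 52 of 53 of MCT1-KO. Acta2 was found in 72 and 44 cells, Tagln in 69 and 46, and Pdgfrb, a receptor of mesenchymal and mural cells, in 35 and 20. Pdgfrb did not set Acta2-high cells apart, since a UMI was present in 44.3% of them in FLOX and in 45.1% of Acta2-low cells, and in 37.7% and 41.2% in MCT1-KO. Keratin cells, the 2329 and 4066 kept cells with at least 0.05% of UMIs from Krt8, Krt18 and Krt19 and no Ptprc, Pecam1 or Epcam UMI, served as tumor-like cells that should lack collagen. They held Y-linked transcripts in 5.58% of cells in FLOX and 3.10% in MCT1-KO. Acta2-high cells held them in 68.4% (56.9 to 78.4) and 69.8% (55.7 to 81.7), and Acta2-low cells in 72.0% and 78.1%, and no Xist UMI was found in either. The population was thus called by its rule, Acta2-high collagen cells, since it holds cells of more than one contractile pattern, as described below.

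The share of Acta2-high cells among collagen cells was 49.1% (41.1 to 57.1) in FLOX, 79 of 161, and 22.1% (17.0 to 27.9) in MCT1-KO, 53 of 240. As a share of all kept cells they were 1.08% (0.853 to 1.34) and 0.577% (0.433 to 0.754). Collagen cells as a whole made up 2.19% of kept cells in FLOX and 2.61% in MCT1-KO. When the call was made after thinning every cell to 1000 UMIs the shares were 49.1% and 21.7%. At that depth 1 UMI of Acta2 or Tagln is 0.1% of a cell's UMIs, so the thinned call was not the same cut. A threshold of 0.1% on all UMIs gave 34.78% in FLOX and 11.25% in MCT1-KO. Under the thinned call 27 of 68 ratios of named genes left their counting interval. The thinned shares are therefore no check of depth at the stated threshold. FLOX had the higher share under every alternative rule tried, except a rule without myeloid or Cd74 UMIs that left only 3 FLOX collagen cells. Shares of cells recovered by dissociation are not counts of cells in the tumor, and with 1 library per condition the genotype and the library cannot be told apart.

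Within the Acta2-high cells the sum of Acta2 and Tagln ran from 0.0520% to 5.08% of a cell's UMIs in FLOX with a median of 0.185%, and from 0.0514% to 0.886% in MCT1-KO with a median of 0.105%. Among Acta2-low cells 30 of 82 in FLOX and 113 of 187 in MCT1-KO held no UMI of either gene. Just inside the threshold, FLOX cells lay at 0.0520%, 0.0579% and 0.0597%, and just outside it at 0.0481%, 0.0459% and 0.0452%. In MCT1-KO the nearest cells inside lay at 0.0514%, 0.0515% and 0.0535%, and those outside at 0.0492%, 0.0476% and 0.0472%. Between 0.04% and 0.06% there were 9 FLOX and 14 MCT1-KO cells. A single UMI carried the call in 5 FLOX and 4 MCT1-KO cells. The values showed no gap at the threshold, so the class is defined by a cut in a range of values.

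**Figure D1:**
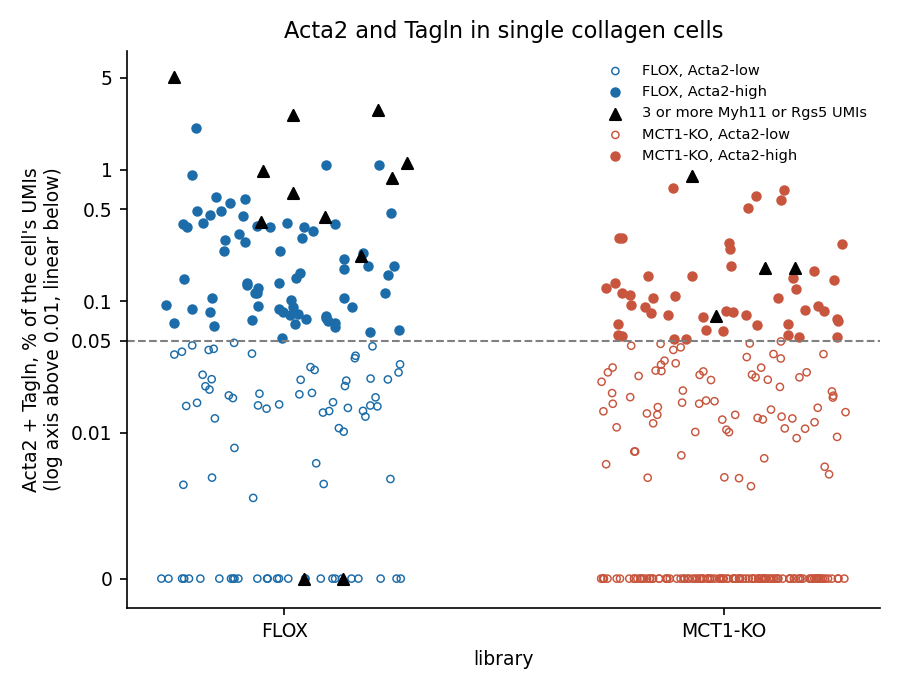
Each point is 1 collagen cell, with the share of its UMIs that come from Acta2 and Tagln on a vertical axis that is logarithmic above 0.01% and linear below, and the library on the horizontal axis. Filled points are Acta2-high and open points Acta2-low, the dashed line is the 0.05% threshold, and triangles are cells with 3 or more UMIs of Myh11 or Rgs5, 1 of which reaches 5.08% in FLOX.

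Acta2 was also counted widely outside collagen cells, whereas Tagln was low there. Acta2 stood at 2480 CPM (2377 to 2587) in Acta2-high cells of FLOX and 938 CPM (855 to 1026) in MCT1-KO, against 109 and 61.3 CPM in Acta2-low cells. Keratin cells held 903 and 737 CPM of Acta2, and barcodes with 10 to 100 UMIs held 850 and 601 CPM, above the 500 CPM that the threshold asks of both genes together. Tagln stood at 2501 CPM (2397 to 2608) and 1041 CPM (954 to 1133) in Acta2-high cells, at 49.1 and 33.9 CPM in Acta2-low cells, and only at 11.8 and 6.29 CPM in keratin cells. The number of Acta2 UMIs per Tagln UMI was 0.992 and 0.901 in Acta2-high cells, 2.22 and 1.81 in Acta2-low cells, and 76.2 and 117 in keratin cells. Both genes entered the rule for Acta2-high cells and not that for keratin cells, so this ratio is a description only. Tagln without an Acta2 UMI was seen in 7 and 9 Acta2-high cells, and Acta2 without a Tagln UMI in 10 and 7. With Tagln alone as the criterion, an alternative added after the values had been seen, the shares were 35.4% and 14.2% of collagen cells.

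**Figure D2:**
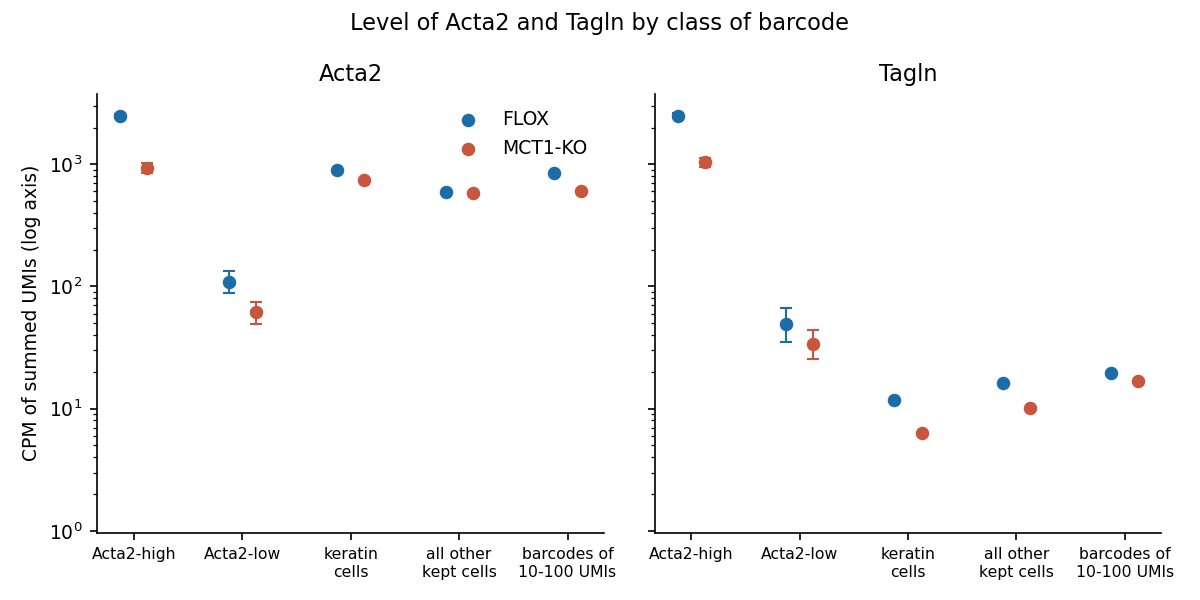
CPM of Acta2 (left) and Tagln (right) on a log axis by class of barcode in both libraries, with 95% counting intervals on the Acta2-high and Acta2-low points. Acta2 in keratin cells (903 and 737 CPM) and in barcodes of 10 to 100 UMIs (850 and 601 CPM) lies near the Acta2-high level of MCT1-KO, whereas Tagln in keratin cells lies at 11.8 and 6.29 CPM.

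The other genes of the rule described the matrix side of the population. Col1a1, the main fibrillar collagen chain, was at 7539 CPM in Acta2-high and 4566 CPM in Acta2-low cells of FLOX, and at 9828 and 3534 CPM in MCT1-KO. Col3a1 was at 6284 and 5745 CPM in FLOX and at 6639 and 4116 CPM in MCT1-KO. Dcn, the proteoglycan decorin, ran the other way, at 4022 against 5382 CPM in FLOX and 4220 against 8382 CPM in MCT1-KO. Pdgfra, a receptor widely used to mark fibroblasts, was at 146 against 277 CPM and at 105 against 173 CPM. These genes chose the cells, so their levels are a description only.

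Contractile genes that the rule did not name were higher in Acta2-high cells, but they come from the cells that Acta2 and Tagln selected, and the contrast with Acta2-low cells is likewise a description. In FLOX 17 of 26 measured genes of the contractile list were at least 2-fold higher and none at least 2-fold lower, with a median ratio of 2.13, beside 113 of all 4565 genes (2.48%) higher, 189 (4.14%) lower and a median of 0.986. In MCT1-KO 11 of 21 were higher and none lower, with a median of 2.02, beside 138 of 5050 genes (2.73%) higher, 360 (7.13%) lower and a median of 0.973. A gene counted as measured with at least 50 UMIs in the classes compared. Over the 4289 genes measured in both libraries, 32 (0.746%) were at least 2-fold higher in both, 85 (1.98%) lower in both, and 6 went opposite ways. Of the 21 contractile genes measured in both, 9 were higher in both.

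Myl9, the regulatory light chain of smooth muscle and nonmuscle myosin, was at 466 CPM in Acta2-high and 31.1 CPM in Acta2-low cells of FLOX, a ratio of 15.0 (10.1 to 23.2). In MCT1-KO it was at 192 and 15.3 CPM, a ratio of 12.5 (7.94 to 20.5). A Myl9 UMI was present in 59.5% of Acta2-high and 23.2% of Acta2-low cells of FLOX and in 49.1% and 8.02% in MCT1-KO, beside 21.6% and 17.9% of keratin cells. Tpm2, a tropomyosin of the actin filament, had ratios of 8.22 (6.70 to 10.2) and 3.97 (3.24 to 4.87). Both genes thus stood apart from Acta2-low cells in each library. The myosin light chain Myl6 (2.22 and 2.02), calponin family member Cnn2 (2.80 and 2.30), the focal adhesion protein Zyx (2.04 and 2.36) and myosin light chain kinase Mylk (2.32 and 2.18) were also past 2-fold in both with all cells. Without cells that held 3 or more UMIs of Myh11 or Rgs5, described below, Myl6 (1.79 and 1.97) and Mylk (1.52 and 1.93) were past it in neither, whereas Cnn2 (2.54 and 2.36) and Zyx (2.03 and 2.33) stayed past it. Vcl and Tagln2, also of the list, were not past it in either, at 1.15 and 1.34 in FLOX and 0.847 and 1.21 in MCT1-KO. Of the cofactors and regulators of serum response factor (SRF), the factor that drives contractile genes through the CArG box, 0 of 9 measured genes in FLOX and 0 of 7 in MCT1-KO passed 2-fold either way.

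Promoters of Acta2 and of some of the contractile genes past 2-fold in both libraries are shown, with and without boxes, because the genes were higher in the same cells. RefSeq sequences of the 250 bases upstream of the start (GRCm38.p6, gene strand, 5′ to 3′) were searched for the CArG box on both strands, and for a looser form with 1 G or C in its 6-base centre. Capitals mark these boxes. The promoters of Zyx and Mylk, also past 2-fold in both libraries with all cells, held neither form and are not shown. Acta2 (chr19:34255374-34255623, minus strand) held 2 looser boxes. Myl9 (chr2:156775214-156775463, plus strand) held 1 CArG box and 1 looser box, and Cnn2 (chr10:79988350-79988599, plus strand) and Myl6 (chr10:128493010-128493259, minus strand) held 1 CArG box each. A second RefSeq start of Myl6 (upstream window chr10:128493887-128494136) held neither form. Cnn1 (chr9:22099003-22099252, plus strand) and Tpm2 (chr4:43523555-43523804, minus strand), which had larger ratios than Cnn2 and Myl6, held neither form. Cxcl13 (chr5:95956689-95956938, plus strand), the chemokine with the lowest ratio in Acta2-high cells of both libraries among the named genes, is set beside them and also held none.
Acta2: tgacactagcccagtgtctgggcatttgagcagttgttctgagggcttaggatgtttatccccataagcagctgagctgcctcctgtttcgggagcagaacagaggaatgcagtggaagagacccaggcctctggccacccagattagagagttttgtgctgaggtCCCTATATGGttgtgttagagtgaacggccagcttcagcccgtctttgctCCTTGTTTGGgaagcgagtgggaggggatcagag
Myl9: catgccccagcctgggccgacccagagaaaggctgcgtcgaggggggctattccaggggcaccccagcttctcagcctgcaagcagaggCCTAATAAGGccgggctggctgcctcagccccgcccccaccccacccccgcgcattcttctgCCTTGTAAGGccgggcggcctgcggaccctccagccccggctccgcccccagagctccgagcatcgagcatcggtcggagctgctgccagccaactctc
Cnn2: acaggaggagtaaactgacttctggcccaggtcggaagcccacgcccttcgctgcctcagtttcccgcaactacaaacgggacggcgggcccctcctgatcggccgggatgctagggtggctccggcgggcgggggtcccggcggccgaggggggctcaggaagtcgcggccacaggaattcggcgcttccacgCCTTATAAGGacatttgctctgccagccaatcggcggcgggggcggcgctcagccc
Myl6: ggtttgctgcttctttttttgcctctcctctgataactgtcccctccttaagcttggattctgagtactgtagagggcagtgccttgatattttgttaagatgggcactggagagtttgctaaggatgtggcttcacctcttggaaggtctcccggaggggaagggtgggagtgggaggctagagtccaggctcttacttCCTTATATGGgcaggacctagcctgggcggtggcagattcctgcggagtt
Cnn1: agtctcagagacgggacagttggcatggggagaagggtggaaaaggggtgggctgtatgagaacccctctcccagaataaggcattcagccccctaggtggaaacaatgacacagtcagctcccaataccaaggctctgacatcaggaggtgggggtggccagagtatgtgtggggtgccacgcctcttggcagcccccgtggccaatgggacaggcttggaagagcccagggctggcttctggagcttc
Tpm2: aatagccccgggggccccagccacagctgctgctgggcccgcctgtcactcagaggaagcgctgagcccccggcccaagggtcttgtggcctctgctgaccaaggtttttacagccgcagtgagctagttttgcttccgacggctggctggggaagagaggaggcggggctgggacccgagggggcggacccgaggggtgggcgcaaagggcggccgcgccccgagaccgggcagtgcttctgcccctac
Cxcl13: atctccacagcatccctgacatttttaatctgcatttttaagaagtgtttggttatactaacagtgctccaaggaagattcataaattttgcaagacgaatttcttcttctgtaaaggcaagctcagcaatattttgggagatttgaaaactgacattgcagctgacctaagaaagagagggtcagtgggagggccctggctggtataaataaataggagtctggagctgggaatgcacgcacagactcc

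The Acta2 boxes read CCCTATATGG, 84 to 75 bases before the start, and CCTTGTTTGG, 34 to 25 bases before it, and the Cnn2 box read CCTTATAAGG, 56 to 47 bases before it. Of 24 contractile-list genes with a RefSeq promoter, of 27 listed, 5 held a CArG box (20.8%), beside 439 of 27025 genes (1.62%). The looser form occurred in 8.33% of the listed genes and of all genes. The MCAT box of TEAD factors, CATTCC or its complement GGAATG, counted separately and allowed to overlap the CArG box, occurred in 10 of the 24 (41.7%), beside 14.4% of all genes. None of 12 myofibroblastic matrix genes and none of 23 inflammatory genes with a promoter held a CArG box, nor did any of 8 smooth muscle genes. The looser form, the only one in Acta2, occurred in 17.4% of the inflammatory genes. Of the 5 genes with a box, Cnn2, Myl6 and Myl9 were past 2-fold in both libraries and Vcl in neither, while Fhl2 was not past it in FLOX and had under 50 UMIs in MCT1-KO, and Myl6 was past it in neither without the Myh11 or Rgs5 cells. A match of letters is a description and not a binding site, and Tagln and Myh11 were not found in the table by symbol.

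A few cells carried smooth muscle and pericyte transcripts, and they weighed on the summed contractile counts. Myh11, the heavy chain of smooth muscle myosin, was at 412 CPM in Acta2-high cells of FLOX and 2.39 CPM in Acta2-low cells, but 257 of its 358 UMIs came from 1 cell. That cell held 20223 UMIs, of which 5.08% were Acta2 and Tagln, and also 669 of 792 UMIs of Actg2, enteric smooth muscle actin, 210 of 256 of Cnn1 and 178 of 390 of Des. It held only 11 Col1a1 and 2 Dcn UMIs. In MCT1-KO Myh11 had 18 UMIs in 6 cells and none in Acta2-low cells. Rgs5, a pericyte marker, had 319 UMIs in 6 FLOX cells and 36 UMIs in 3 MCT1-KO cells.

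Cells with 3 or more UMIs of Myh11 or Rgs5 numbered 10 of 79 in FLOX and 4 of 53 in MCT1-KO, and 2 of 82 and 0 of 187 among Acta2-low cells. The 4 FLOX cells with Myh11 and no Rgs5 held 836 CPM of Col1a1 and 0 UMIs of Pdgfra, Cthrc1 and C3. The 6 FLOX cells with Rgs5 held 4506 CPM of Col1a1, 327 CPM of Pdgfrb and 392 CPM of Notch3, a receptor of mural cells. The other 69 held 8103 CPM of Col1a1, 4327 CPM of Dcn, 1209 CPM of C3 and 9.08 CPM of Notch3. In MCT1-KO the 2 cells with Myh11 and no Rgs5 held 3964 CPM of Col1a1, 1181 CPM of C3 and 0 UMIs of Pdgfra and Cthrc1. The 2 MCT1-KO cells with Rgs5 held 474 CPM of Col1a1, 758 CPM of Notch3 and 0 UMIs of Dcn and C3. The 49 cells with neither marker held 10333 CPM of Col1a1, 1078 CPM of C3 and 6.37 CPM of Notch3. The Rgs5 cells thus stood apart by Notch3 in both libraries, on 24 UMIs in FLOX and 8 in MCT1-KO, of which 5 came from 1 cell. The Myh11 cells stood apart by C3 in FLOX only, where 1 cell held 20223 of their 37068 UMIs. In MCT1-KO the 2 Myh11 cells held 9 UMIs of Myh11 and 28 of C3. With so few cells the difference between the libraries is a description only. The list counts and the leading contractile genes are therefore also given without the Myh11 or Rgs5 cells, a split that was added after the values had been seen.

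Without them the contractile list kept its direction with fewer genes past the limit, 8 of 23 in FLOX and 6 of 20 in MCT1-KO, and none lower. Myl9 had ratios of 7.56 and 10.8, Tpm2 of 4.51 and 3.80, and Cnn1 of 16.5 and 13.7. With all cells Cnn1, a calponin of smooth muscle, had ratios of 123 (33.7 to 1021) and 14.5 (6.93 to 33.8). The ratio in FLOX therefore rested mostly on 1 cell, while the gene stood apart from Acta2-low cells in both libraries either way. Desmin (Des) was at 449 against 76.6 CPM in FLOX and 131 against 76.0 CPM in MCT1-KO, and its FLOX ratio of 5.86 was 3.03 without those cells. The smooth muscle list, which shares members with the contractile list, counted 7 of 7 measured genes higher in FLOX and 1 of 3 in MCT1-KO, and 3 of 4 and 0 of 2 without those cells.

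Cell by cell, the contractile list was spread over a wide range. Its sum per cell had a median of 10348 CPM in Acta2-high cells of FLOX, from 2715 to 167680, and of 7019 CPM in MCT1-KO, from 1842 to 24839. In Acta2-low cells the medians were 6291 and 4051 CPM with maxima of 12206 and 9681. The inflammatory list ran from 792 to 25483 CPM in Acta2-high cells of FLOX and from 542 to 29840 CPM in MCT1-KO. Single cells of the 2 classes overlapped on both lists. More contractile than inflammatory UMIs were held by 53 of 79 Acta2-high cells in FLOX (67.1%) and 25 of 53 in MCT1-KO (47.2%), against 21 of 82 (25.6%) and 20 of 187 (10.7%) of Acta2-low cells.

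**Figure D3:**
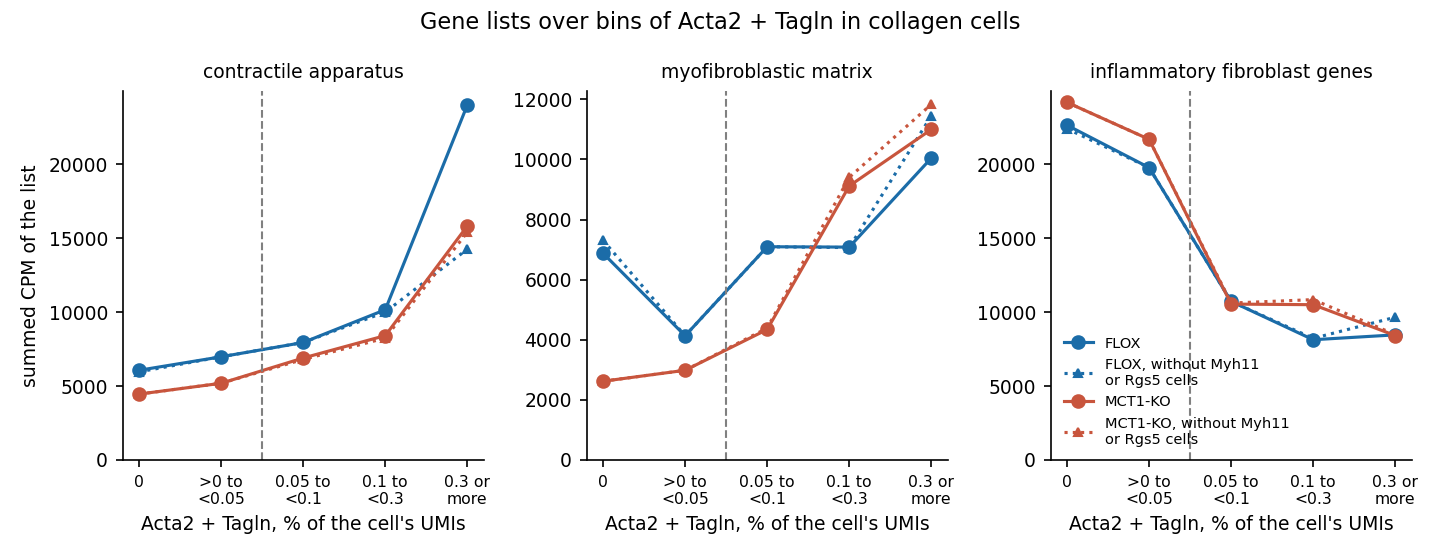
Summed CPM of 3 gene lists, without the genes of the rule, over 5 bins of the Acta2 and Tagln share of a cell's UMIs, with the 0.05% threshold as a dashed line. Triangles leave out cells with 3 or more Myh11 or Rgs5 UMIs; the contractile list reached 24012 CPM in the top bin of FLOX with all cells and 14258 CPM without those cells, and the inflammatory list stood at 8459 and 8412 CPM in the top bin of the libraries.

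Over bins of the Acta2 and Tagln share the contractile list stood at 6065, 6977, 7944, 10161 and 24012 CPM in FLOX and at 4453, 5186, 6895, 8410 and 15828 CPM in MCT1-KO. The top bin held 31 and 7 cells. Without the Myh11 or Rgs5 cells it stood at 14258 and 15410 CPM. The inflammatory list stood at 22640, 19770, 10722, 8129 and 8459 CPM in FLOX and at 24182, 21684, 10541, 10499 and 8412 CPM in MCT1-KO. Its largest step was thus between the bins on either side of the threshold, whereas the contractile list was highest in the last bin. C3, the central complement protein, stepped down over the same bins, from 6581 to 745 CPM in FLOX and from 5858 to 534 CPM in MCT1-KO.

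Matrix genes of the myofibroblastic state had median ratios above 1 in both libraries, and the number past 2-fold in FLOX moved with the treatment of free RNA. In FLOX 4 of 14 measured genes were at least 2-fold higher and 1 lower, with a median ratio of 1.71, and in MCT1-KO 8 of 12 were higher and none lower, with a median of 2.51. With free RNA subtracted 9 of 13 were higher in FLOX and 8 of 12 in MCT1-KO, and with cells thinned before summing 2 of 7 and 2 of 5 were. Cthrc1, a secreted protein of collagen-depositing fibroblasts, was at 122 against 21.6 CPM in FLOX, a ratio of 5.66 (3.41 to 9.92), and at 137 against 17.3 CPM in MCT1-KO, a ratio of 7.91 (5.0 to 12.9). It was found in 26 of 79 and 12 of 53 Acta2-high cells and in 0.215% and 0.0984% of keratin cells. Col8a1 (2.69 and 6.81), the Wnt antagonist Sfrp1 (2.07 and 2.96) and the growth factor carrier Igfbp3 (2.79 and 2.09) were the other members past 2-fold in both, of which Igfbp3 had 1.93 in MCT1-KO without the Myh11 or Rgs5 cells. Cthrc1 was thus rare in keratin cells, from which collagen cells were left out, and was also found in 12.2% and 9.09% of Acta2-low cells. No UMI of it was found in the 4 FLOX cells with Myh11 and no Rgs5.

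For some matrix genes the ratio was past 2-fold in MCT1-KO and not in FLOX with the rule as stated, without a test of the difference. Thbs2, a matricellular thrombospondin, had ratios of 1.68 (1.32 to 2.15) in FLOX and 5.30 (4.16 to 6.79) in MCT1-KO, and Col12a1 had 1.62 (1.43 to 1.83) and 4.48 (3.84 to 5.23). For Tnc, the tenascin of tumor stroma, the ratios were 1.72 and 2.20, and a Tnc UMI was present in 37.8% and 49.0% of keratin cells. With Tagln alone as the rule Thbs2 had 2.24 and 7.69, past 2-fold in both, and Tnc 1.65 and 1.94, past it in neither. Without the Myh11 or Rgs5 cells, Col12a1 in Acta2-high cells was at 881 CPM in FLOX and 806 CPM in MCT1-KO. In Acta2-low cells it was then at 513 and 181 CPM. Thbs2 was then at 240 and 384 CPM in Acta2-high and at 133 and 69.0 CPM in Acta2-low cells. With all cells periostin (Postn) was not past 2-fold in either library, at 1.84 and 1.47. Of the other collagens 0 of 12 were past 2-fold in FLOX and 4 of 12 in MCT1-KO, namely Col5a1, Col6a2, Col6a3 and Col15a1. Acta2-low cells of FLOX with no Acta2 or Tagln UMI held 6877 CPM of the matrix list, near the 7094 CPM of the lowest Acta2-high bin, while in MCT1-KO the values were 2618 and 4340 CPM.

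Genes that act around the matrix gave a mixed picture. Timp1 and Timp3, inhibitors of matrix metalloproteinases, were higher in both libraries, with ratios of 2.50 and 2.37 for Timp1 and 2.30 and 2.44 for Timp3. Timp1 stood at 2340 and 1365 CPM and Timp3 at 4912 and 2596 CPM in Acta2-high cells. The aggrecanase Adamts5 was lower in both, at 0.146 (0.0935 to 0.219) and 0.448 (0.299 to 0.652). Stromelysin (Mmp3) was at 10.4 against 180 CPM in FLOX but at 123 against 171 CPM in MCT1-KO, where 46 of its 62 UMIs in Acta2-high cells came from 1 cell. Over the whole list 3 of 14 were higher and 2 lower in FLOX, and 2 of 15 higher and 2 lower in MCT1-KO. Matrix proteins and crosslinkers counted 1 of 21 higher in FLOX and 1 of 20 higher and 1 lower in MCT1-KO.

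The TGF-beta axis, the signal known to induce the myofibroblast state, was mostly within 2-fold. It counted 3 of 21 genes higher and 1 lower in FLOX, and 2 of 20 higher and 2 lower in MCT1-KO, with medians of 1.13 in both. Ccn2, a matricellular target of TGF-beta and YAP, was higher in both, at 4.97 (3.19 to 8.04) and 3.02 (1.91 to 4.79). Tgfb2, a ligand, had ratios of 3.29 and 1.82, and Ltbp2, a binding protein of the extracellular matrix, 2.73 in FLOX with too few UMIs in MCT1-KO. The co-receptor Tgfbr3 was lower in both, at 0.243 (0.183 to 0.320) and 0.325 (0.236 to 0.438). The receptors Tgfbr1 (0.808 and 0.843) and Tgfbr2 (0.633 and 0.861) were not past 2-fold. Among PDGF, FGF and HGF signals only Pdgfa, a ligand of the fibroblast receptor Pdgfra, was higher in both, at 3.02 and 3.48, the latter 1.64 with cells called on Tagln alone. Igfbp5, of the same list, was lower in both, at 0.359 (0.230 to 0.548) and, on 1 UMI, 0.0228 (0.000572 to 0.129).

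The remaining leading genes with higher levels in both libraries were Nebl, a nebulin family protein of actin filaments, AA467197, the small GTPase Rrad, the complement inhibitor Cd59a and the small heat shock protein Hspb2. Their smaller ratio of the libraries was 4.87, 4.86, 3.72, 3.44 and 2.82. AA467197 was also present in barcodes of 10 to 100 UMIs, at 132 and 71.1 CPM, beside 192 and 93.0 CPM in Acta2-high cells, so its level there was near that of the free RNA. Rrad was found in only 9 and 8 Acta2-high cells, and without the Myh11 or Rgs5 cells its ratio in MCT1-KO was 1.33. That ratio also turned its direction when Pdgfrb could not qualify a cell, as given at the end. Nebl and Cd59a were near 0 in keratin cells, at most 0.543 CPM.

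**Figure D4:**
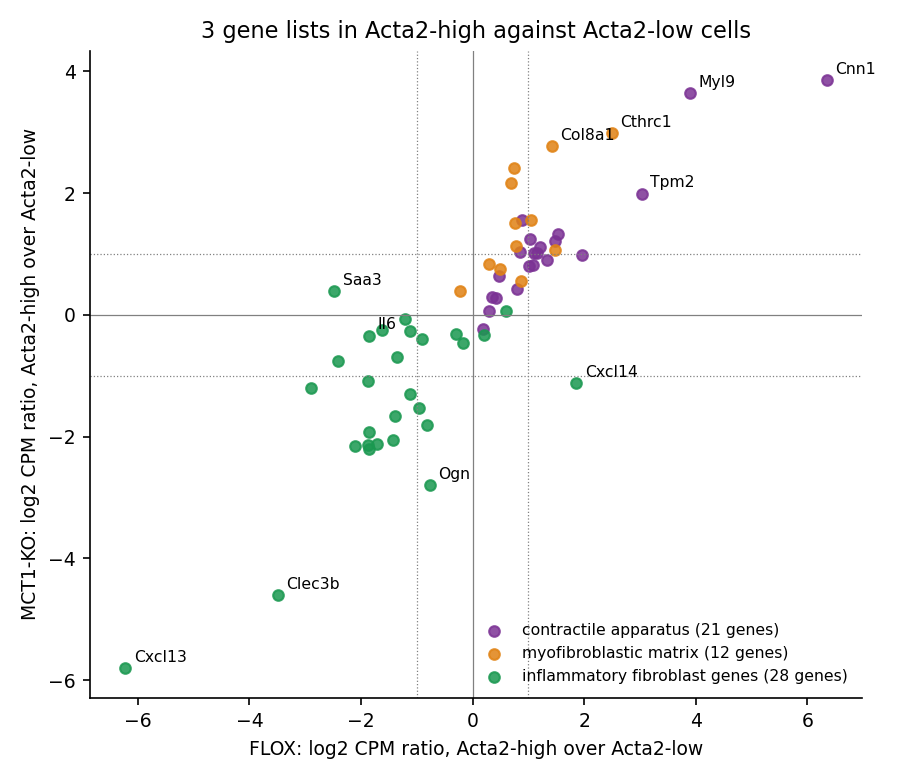
Log2 CPM ratio of Acta2-high over Acta2-low cells in FLOX (horizontal) and MCT1-KO (vertical) for genes of 3 lists with at least 50 UMIs in both libraries, with a count under 3 UMIs set to 3. Dotted lines mark 2-fold; contractile and matrix genes lie mainly to the upper right, inflammatory genes mainly to the lower left, and Cxcl14 and Saa3 lie off the diagonal.

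Among the lists of fibroblast genes, the inflammatory list had the lowest median ratio in both libraries. In FLOX 20 of 30 measured genes were at least 2-fold lower and 1 higher, with a median ratio of 0.386, and in MCT1-KO 16 of 28 were lower and none higher, with a median of 0.446. Of the 28 measured in both, 12 were lower in both. Without the Myh11 or Rgs5 cells the counts were 21 of 30 and 15 of 28. With cells thinned to 1000 UMIs before summing, 6 of 13 and 11 of 19 were lower and none higher.

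Cxcl13, a chemokine for B cells, was at 3.45 CPM in Acta2-high and 257 CPM in Acta2-low cells of FLOX, a ratio of 0.0134 (0.00274 to 0.0397) that rests on 3 UMIs. In MCT1-KO it was at 85.1 and 4761 CPM, a ratio of 0.0179 (0.0129 to 0.0241). A Cxcl13 UMI was present in 3.80% and 15.1% of Acta2-high cells and in 19.5% and 44.9% of Acta2-low cells, beside 0.258% and 3.84% of keratin cells. Cxcl12, the ligand of Cxcr4 on lymphocytes, had ratios of 0.275 (0.195 to 0.383) and 0.218 (0.158 to 0.294). C3 had 0.271 (0.252 to 0.292) and 0.227 (0.208 to 0.248), and C4b 0.380 and 0.317. These 4 genes were thus lower in Acta2-high cells of both libraries.

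Other single genes had ratios in the same direction. Clec3b (tetranectin) had ratios of 0.0893 (0.0568 to 0.135) and 0.0413 (0.0133 to 0.0972), and Cd34, a cell surface sialomucin, 0.232 and 0.225. Pi16 had 0.463 and 0.405, Scara5 0.135 and 0.432, Svep1 0.276 and 0.264, and the actin-severing protein Gsn 0.306 and 0.230. The other leading genes with lower levels were Adh1, an alcohol dehydrogenase that can oxidize retinol, the pentraxin Ptx3, the glycoprotein Lrg1, the fibulin Efemp1, Lvrn, Nup210l and Gm12394. Their larger ratio of the libraries lay between 0.0947 and 0.266. In Acta2-high cells these 7 genes had 2 to 25 UMIs per library.

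Other cytokines of the inflammatory state did not all follow. Il6, a cytokine of this state, was at 189 against 684 CPM in FLOX, a ratio of 0.276 (0.231 to 0.329), but at 303 against 383 CPM in MCT1-KO, a ratio of 0.790 (0.657 to 0.945). With cells called on Tagln alone its ratios were 0.335 and 0.437, so it was then past 2-fold in both libraries. Saa3, an acute phase protein, was at 943 against 5245 CPM in FLOX and at 2050 against 1563 CPM in MCT1-KO. The neutrophil chemokines Cxcl1 (0.887 and 0.723) and Cxcl2 (1.52 and 1.04) and the monocyte chemokines Ccl2 (1.15 and 0.794) and Ccl7 (0.810 and 0.800) were not past 2-fold in either library. Acta2-high cells thus held these chemokines at levels within 2-fold of Acta2-low cells, with 787 and 1015 CPM of Ccl2. Cxcl14 was the 1 gene of the list that was higher in FLOX, and 299 of its 533 UMIs there came from 1 cell.

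By shares of cells with a UMI before thinning, the study's cytokine axis of Irf1, Cxcl9 and Cxcl10 was seen in Acta2-high cells about as often as in keratin cells. Cxcl9, an interferon-induced ligand of Cxcr3, was at 86.3 CPM in Acta2-high and 75.4 CPM in Acta2-low cells of FLOX, and at 73.2 and 49.2 CPM in MCT1-KO. With Tagln alone as the rule its ratios were 0.561 (0.375 to 0.822) in FLOX and 2.36 (1.54 to 3.56) in MCT1-KO. Its share of cells with a UMI, 36.7% and 22.6%, was close to that of keratin cells, 38.2% and 19.6%, at median depths of 9747 and 12924 UMIs there. Cxcl10, another ligand of Cxcr3, had ratios of 0.994 (0.826 to 1.20) in FLOX and 0.470 (0.371 to 0.589) in MCT1-KO, and was found in 46.8% and 26.4% of Acta2-high cells and 43.9% and 27.5% of keratin cells. For both chemokines the share in keratin cells lay inside the counting interval of the share in Acta2-high cells. Whether keratin cells express them was not tested. Irf1, the transcription factor upstream, had ratios of 1.34 (1.08 to 1.65) and 0.605 (0.452 to 0.799). Over the interferon list 0 of 17 genes passed 2-fold in FLOX and 1 of 18 in each direction in MCT1-KO, and over the study's cytokine list 0 of 17 were higher and 3 lower, and 3 of 18 higher and 3 lower. The study chose that list on these samples, so it is no independent evidence of a direction. The members higher in MCT1-KO were Il1b, Ccl4 and Ccl5, which immune cells express, and 42 of the 103 Il1b UMIs came from 1 cell. Antigen-presenting fibroblast genes counted 0 of 6 past 2-fold in FLOX and 1 of 6 lower in MCT1-KO.

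Lactate handling and autophagy were the other themes of the study. Slc16a1 was lower in Acta2-high than in Acta2-low cells of FLOX, with a ratio of 0.367 (0.178 to 0.714) on under 50 UMIs, and had 0.599 (0.294 to 1.12) in MCT1-KO. A UMI of it was present in 13.9% of Acta2-high and 26.8% of Acta2-low cells of FLOX, and in 17.0% and 28.3% in MCT1-KO. Of the lactate list 0 of 8 genes were higher and 1 lower in each library, the lower gene being Emb, a partner protein of lactate transporters, at 0.351 and 0.320. Bsg, the partner of MCT1 at the membrane, had ratios of 1.30 and 1.43, lactate dehydrogenase Ldha 1.24 and 1.71, and Slc16a3, which encodes MCT4, 1.31 in FLOX with too few UMIs in MCT1-KO. Of the autophagy list 0 of 18 were past 2-fold in FLOX and 1 of 18, lower, in MCT1-KO, with medians of 1.03 and 1.01. Glycolysis and hypoxia genes counted 1 of 17 and 1 of 16 higher and none lower, with medians of 1.17 and 1.46. Genes of quiescent, fat-storing stellate cells counted 1 of 4 higher in FLOX and none in MCT1-KO.

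Markers of other cell types were given beside these contrasts. Tumor epithelial markers summed to 191 CPM in Acta2-high and 356 CPM in Acta2-low cells of FLOX, 275 and 348 CPM in MCT1-KO, and 1603 and 1980 CPM in keratin cells, and 2 of 4 measured members, Lcn2 and Sox9, were lower in FLOX and 0 of 4 in MCT1-KO. Myeloid markers summed to 783 and 870 CPM in FLOX and 1023 and 674 CPM in MCT1-KO, with 1 of 9 genes higher and 2 lower in MCT1-KO. Of the 9 genes 2 were above a ratio of 1 in FLOX, with a median of 0.817. In MCT1-KO 7 were above it, with a median of 1.58. With Tagln alone as the rule 5 of 9 were at least 2-fold higher and 2 lower in MCT1-KO. A Cd74 UMI was present in 97.5% and 83.0% of Acta2-high cells and in 95.9% and 87.4% of keratin cells. Endothelial markers summed to 121 and 97.0 CPM in FLOX and 125 and 89.5 CPM in MCT1-KO, and fat cell markers to 89.7 and 210 CPM and to 489 and 386 CPM. Mural markers summed to 890 and 372 CPM in FLOX and 538 and 212 CPM in MCT1-KO, where 3 of 6 measured members were higher and 1, Steap4, lower in FLOX, and 1 of 4 higher in MCT1-KO. Acinar markers summed to 151 and 93.4 CPM in FLOX and to 922 and 2627 CPM in MCT1-KO, where 10 of 12 were lower. B and plasma markers had 1 measured gene, lower in MCT1-KO, islet markers 1, lower in FLOX, and T and NK and Schwann markers none. The part of these transcripts in the contrasts was not tested.

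Between the libraries, contractile genes in Acta2-high cells were lower in the library labelled MCT1-KO, and how many were past 2-fold rested on the Myh11 or Rgs5 cells. With all cells 0 of 27 measured genes were at least 2-fold higher and 13 lower, with a median ratio of MCT1-KO over FLOX of 0.511, beside 85 of all 3748 genes (2.27%) higher, 171 (4.56%) lower and a median of 0.951. Without the 10 FLOX and 4 MCT1-KO cells with 3 or more Myh11 or Rgs5 UMIs, 0 of 23 were past 2-fold in either direction, with a median log2 ratio of -0.35. Acta2-low cells showed a like shift, with 2 of 23 contractile genes above a ratio of 1, 3 at least 2-fold lower and a median of 0.725, or -0.46 on the log2 scale. Of all 5676 genes measured there 2528 were above 1, 180 at least 2-fold higher and 227 lower, with a median of 0.959. In Acta2-high cells Myl9 had a ratio of 0.412 (0.327 to 0.515) with all cells and 0.717 (0.542 to 0.941) without the Myh11 or Rgs5 cells. Tpm1 had 0.436 and 0.892, Tpm2 0.435 and 0.783, and Actg2 0.0478 and 0.610. Cnn1 changed direction, from 0.282 (0.199 to 0.392) to 1.95 (1.18 to 3.26). Acta2 and Tagln themselves, by which the cells were chosen, were at 0.378 (0.342 to 0.418) and 0.416 (0.378 to 0.458) with all cells and 0.550 and 0.584 without them. Their median share of a cell's UMIs was 0.185% in FLOX and 0.105% in MCT1-KO. By bins of that share, without the Myh11 or Rgs5 cells, the contractile list stood at 7944, 10002 and 14258 CPM in FLOX. In MCT1-KO it stood at 6798, 8241 and 15410 CPM, so the top bin was not lower. The part of this share in the ratios was not tested.

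**Figure D5:**
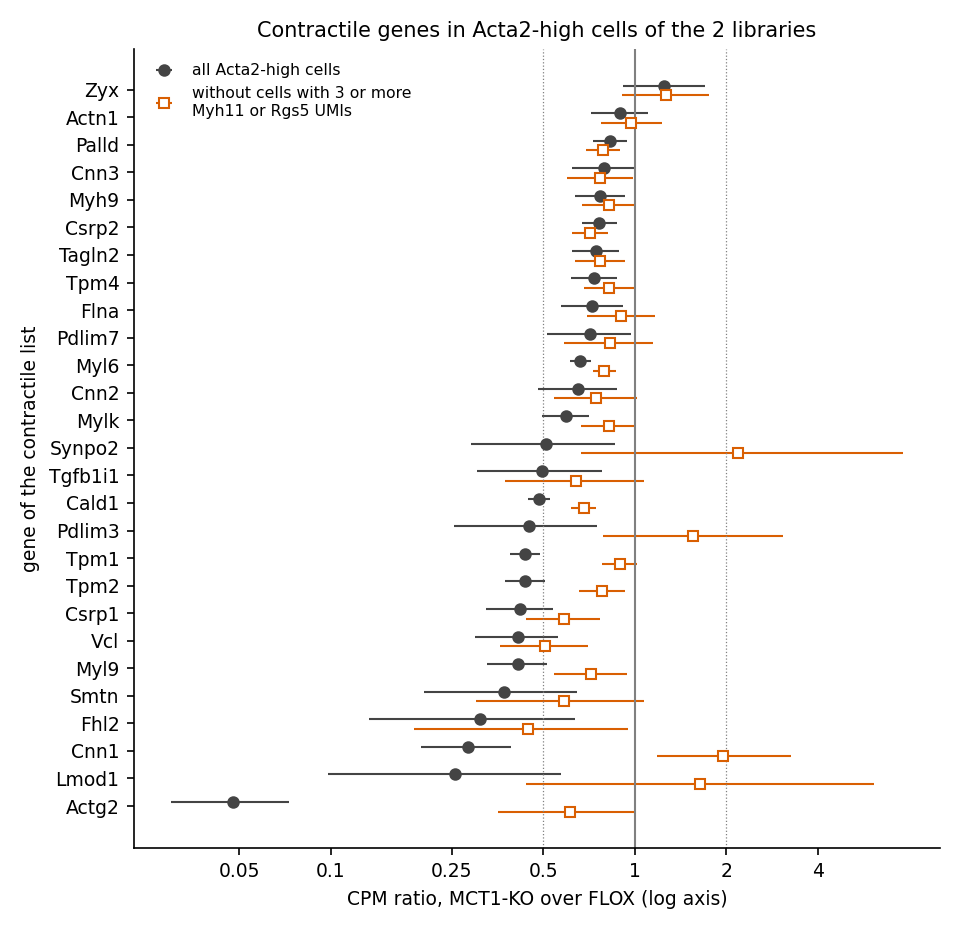
CPM ratio of the library labelled MCT1-KO over FLOX in Acta2-high cells for the 27 measured contractile genes, on a log axis with 95% counting intervals, and dotted lines at 2-fold. Filled points use all Acta2-high cells and open squares leave out cells with 3 or more Myh11 or Rgs5 UMIs; Actg2 moves from 0.0478 to 0.610 and Cnn1 from 0.282 to 1.95, and genes left with under 50 UMIs, such as Synpo2 and Fhl2, are drawn but not counted.

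Of the myofibroblastic matrix genes 3 of 13 were lower and none higher in the library labelled MCT1-KO, with the same counts without the Myh11 or Rgs5 cells. In Acta2-low cells 6 of 13 were lower and none higher, with a median ratio of 0.516. Beside them 227 of all 5676 genes measured in Acta2-low cells were lower and 180 higher, with a median of 0.959. With free RNA subtracted 5 of 13 were lower and 1 higher. Tnc had a ratio of 0.395 (0.321 to 0.483), Postn 0.412 (0.320 to 0.526) and the small proteoglycan Aspn 0.233 (0.120 to 0.417). Cthrc1 had 1.12 (0.814 to 1.53), Sfrp1 0.982 (0.923 to 1.04), Col12a1 1.00 (0.883 to 1.13) and Thbs2 1.67 (1.35 to 2.05), and none of these was past 2-fold, though Thbs2 was at 2.02 with Tagln alone as the rule. Col1a1 was at 1.30 (1.26 to 1.35) and Col1a2, whose promoter drives the Cre, at 0.975 (0.937 to 1.01). Of the other collagens 2 of 12 were lower, Col4a1 at 0.458 and Col14a1 at 0.407, and 5 of 11 with free RNA subtracted, beside 5 of 12 in Acta2-low cells. Acta2-high cells of the library labelled MCT1-KO were thus fewer among collagen cells. With the rule as stated they held Cthrc1 within 2-fold of its level in FLOX, and Tnc, Postn and Aspn at least 2-fold lower. With Tagln alone as the rule Postn was at 0.515, not past 2-fold. The lower levels were shared with Acta2-low cells. Without the Myh11 or Rgs5 cells, Acta2-low cells held 350 CPM of Tnc in FLOX and 108 CPM in MCT1-KO. Postn was at 217 and 110 CPM there, and Aspn at 53.7 and 1.28 CPM. Col1a1 helped to choose the cells, so its level is a description only.

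Among inflammatory genes 3 of 24 were higher and 4 lower, with a median of 1.04. Saa3 (2.17), the hyaluronan synthase Has1 (2.29) and Ly6c1 (2.61) were higher in the library labelled MCT1-KO, and Cxcl14, Ogn, Ccl11 and Dpt were lower, at 0.142, 0.105, 0.339 and 0.317. Without the Myh11 or Rgs5 cells the ratio of Ogn was 0.298 (0.121 to 0.639). Irf1 was lower, at 0.490 (0.363 to 0.654), and keratin cells likewise held 475 CPM of it in FLOX and 230 CPM in MCT1-KO. A UMI of Irf1 was present in 64.6% and 45.3% of Acta2-high cells and in 64.2% and 51.5% of keratin cells. Cxcl9 had a ratio of 0.848 (0.556 to 1.27), which turned to 1.94 (1.19 to 3.16) when cells were called on Tagln alone. Cxcl10 had 0.633 (0.490 to 0.812) and, on Tagln alone, 0.359 (0.239 to 0.524). On Tagln alone 3 of 7 measured myeloid markers were at least 2-fold higher and 0 lower, beside 1 higher with the rule as stated. Their part in the Cxcl9 ratio was not tested. The interferon list as a whole counted 1 of 14 lower and none higher, and the cytokine list, not independent of these samples, 2 of 17 in each direction. The median log2 ratio of the interferon list was -0.26. With free RNA subtracted, at FLOX estimates that were too high, it was 0.14 over 11 genes, with 1 past 2-fold in each direction. The lactate list counted 0 of 6 and the autophagy list 0 of 15 past 2-fold in either direction.

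The 10 genes with the largest ratios in the library labelled MCT1-KO were Fabp4, Fabp5, Ctla2a, Stmn2, Ctrb1, Penk, Sfrp2, Mt2, Gclc and mt-Nd3. Fabp4, a fatty acid carrier of fat and endothelial cells, was at 50.6 CPM in FLOX and 451 CPM in MCT1-KO, a ratio of 8.91 (6.43 to 12.6). Of its 228 UMIs 116 came from 1 cell, as did 89 of the 168 UMIs of Fabp5. Ctla2a, a cysteine protease inhibitor, was at 117 and 1007 CPM, a ratio of 8.58 (6.93 to 10.7), and was found in 20 of 79 and 28 of 53 cells. In Acta2-low cells Ctla2a had a ratio of 11.0 (8.77 to 14), Stmn2, a regulator of microtubules, 6.83 beside 6.46 in Acta2-high cells, and Fabp4 3.40. These differences between the libraries were thus shared with Acta2-low cells.

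Ctrb1, a digestive enzyme of acinar cells, had a ratio of 6.42 in Acta2-high cells and stood at 109 and 4989 CPM in barcodes with 10 to 100 UMIs. Sfrp2, a Wnt modulator of fibroblasts, was at 159 and 772 CPM, with a ratio of 4.86 (3.99 to 5.95) beside 1.62 in Acta2-low cells, and was found in 17 of 79 and 32 of 53 cells. The metallothionein Mt2 was at 959 and 3646 CPM, with a ratio of 3.80 (3.50 to 4.13) beside 2.23 in Acta2-low cells. Gclc, which makes glutathione precursors, and mt-Nd3, a mitochondrial gene, had ratios of 3.76 and 3.31, although Gclc had 1.74 (0.972 to 3.10) with cells called on Tagln alone and 0.994 with thinned cells. In keratin cells they went from 75.2 to 134 CPM and from 110 to 242 CPM. Sfrp2 was the member of this set with keratin levels under 1 CPM in both libraries and a UMI in the majority of Acta2-high cells of MCT1-KO.

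The 10 genes with the lowest ratios were Actg2, Myh11, Ogn, Cxcl14, Ifi27l2a, Hsph1, Aspn, Dnajb1, Kalrn and Ltbp2. Myh11 had a ratio of 0.0865 (0.0507 to 0.139) with all cells, which was 0.727 (0.164 to 2.61) without the Myh11 or Rgs5 cells. Ltbp2 was at 183 and 51.4 CPM, a ratio of 0.281 (0.178 to 0.428), with 0.133 in Acta2-low cells, and the guanine exchange factor Kalrn had 0.248 beside 0.511. The chaperones Hsph1 (0.180) and Dnajb1 (0.247) belong to the list of heat shock and dissociation genes, of which 6 of 20 were lower and none higher. With cells thinned before summing Dnajb1 had 0.549 (0.275 to 1.04), no longer past 2-fold. That list summed to 20514 CPM in Acta2-high cells of FLOX and 14422 CPM in MCT1-KO, and to 26331 and 14545 CPM in keratin cells. The interferon-induced Ifi27l2a had a ratio of 0.157 beside 0.231 in Acta2-low cells, and stood at 63.2 and 23.2 CPM in keratin cells. The part of dissociation and of free RNA in these ratios was not tested.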

How the data were processed

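Single-cell libraries were analysed from the UMI count matrices that the authors deposited, with 1 matrix of unfiltered barcodes for each of the 2 libraries. Per the labels and methods, libraries were made with a 3′ kit, reads were trimmed with fastp and counted with SeekOneTools, and cells were clustered in Seurat 4.0.0. The build named there is GRCh38, although the gene list is mouse, so the counting reference is uncertain, and the kit is named differently in the methods and the labels. Gene positions and promoters are from GRCm38.

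Barcodes were kept and classed by the stated rule, UMIs were summed per class and scaled to CPM, and CPM ratios were given with conditional exact intervals. CPM levels carry exact Poisson and shares exact Clopper-Pearson intervals. With 1 library per group no test was made. A gene was past the limit at a ratio of 2 either way with at least 50 UMIs in the classes compared, and counts under 3 UMIs were set to 3 for ranking. Doublets were not removed, and an alternative left out 587 and 735 cells with the highest simulated doublet scores. The members and gene lists were chosen with earlier results of these data known. Named genes were list members, and genes with at least 100 UMIs, found in at least 10% of cells of the higher class, with the largest ratios: 12 per direction for Acta2-high over Acta2-low by the smaller ratio of both libraries, and 10 per direction for MCT1-KO over FLOX. The interval code was tested on simulated counts. Figures were drawn with matplotlib 3.10.9, doublet scores used scikit-learn 1.9.0, and intervals used scipy 1.17.1, with numpy 2.4.6 and pandas 2.3.3 under Python 3.11.15.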

Additional observations from a re-analysis of the deposited data

Results flagged for a closer look

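In 3 of the named genes the ratios went past 2-fold in opposite directions between the libraries or between the classes, and the difference was not tested, since each condition is 1 library. Penk, the precursor of enkephalins, had a ratio of Acta2-high over Acta2-low cells of 0.425 in FLOX and 2.37 in MCT1-KO, and 84 of its 258 UMIs in Acta2-high cells of MCT1-KO came from 1 cell. The latter ratio was 1.86 without the Myh11 or Rgs5 cells and 1.61 with cells called on Tagln alone. Cxcl14 had a ratio of 3.63 in FLOX and 0.460 in MCT1-KO, the latter 0.712 on Tagln alone, and 299 of its 533 UMIs in Acta2-high cells of FLOX came from 1 cell. For Saa3 the ratio of MCT1-KO over FLOX was 2.17 in Acta2-high cells and 0.298 in Acta2-low cells. Of its 1036 UMIs in Acta2-high cells of MCT1-KO 308 came from 1 cell, as did 241 of 820 in FLOX.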

How the results depend on the processing

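The share of Acta2-high cells among collagen cells was 34.8% in FLOX and 11.3% in MCT1-KO with a threshold of 0.1%, 32.9% and 12.1% with Acta2 alone and, chosen after seeing the data, 35.4% and 14.2% with Tagln alone. The number of genes past 2-fold moved by over 1.5 times under 5 settings. In the order higher then lower, for Acta2-high over Acta2-low in FLOX, the same in MCT1-KO, and MCT1-KO over FLOX, it was 16, 26, 31, 72, 11 and 13 with cells thinned to 1000 UMIs before summing and 32, 53, 38, 101, 17 and 38 with at least 200 UMIs per gene, where fewer genes were measured. With a limit of 1.5-fold it was 369, 558, 481, 844, 272 and 529. With free RNA subtracted, at FLOX estimates that were too high, it was 182 higher in FLOX, and 303 higher and 374 lower for MCT1-KO over FLOX. With the class called on thinned cells it was 119 lower in FLOX, and the cause was not tested. Of 792 alternative values of 68 ratios of named genes, 674 stayed within the counting interval, 116 moved and 2 reversed. Rrad in MCT1-KO was at 0.638 when Pdgfrb could not qualify a cell, and Gclc over the libraries at 0.994 with cells thinned before summing. Leaving out cells with any myeloid or Cd74 UMI left 0 of 3 FLOX and 5 of 26 MCT1-KO collagen cells Acta2-high, which gave no value. No paired analysis was possible because each group is 1 library, and no replicate could be left out. Depth limits genes with few UMIs, such as Slc16a1, and intervals do not cover the spread between mice.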
